A study of Mus musculus with 11 samples.

Results

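The 6 microarrays described here, of 11 in the series, set newborn mouse microglia that had been cultured against newborn microglia that had been sorted from the brain and lysed at once. They were chosen by their sample titles: 3 arrays of cultured, unstimulated cells (NB_Control) and 3 arrays of freshly sorted cells (NB_FACS), which the methods count as biological replicates. All cells came from C57BL/6N mice killed in the first days after birth and of both sexes, with no transgene and no gene deletion. NB_FACS cells were taken from a brain suspension made with trypsin and DNase, cleared of myelin on Percoll and gated as intermediate for CD45 and high for CX3CR1, and no inhibitor of transcription is named for these steps. NB_Control cells grew for weeks in mixed glial flasks coated with poly-L-ornithine that were fed with 20% medium conditioned by L-929 (a mouse fibroblast line used as a source of macrophage colony stimulating factor) on days 8, 13, 21 and 29. They were shaken off over 5.5 h at 70 rpm, in several harvests of which the earlier ones preceded the later feeds, and were then kept for a day in DMEM/F12 with fetal bovine serum and gentamicin, without added cytokines. The other 5 arrays hold sorted adult microglia (A_FACS, 2 arrays) and newborn cultures given 100 ng/mL each of CX3CL1, IL-34 and TGF-beta (NB_Stim, 3 arrays). They served in the estimate of the spread, and their levels are given only as a setting for the comparison.

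Microglia are the resident macrophages of the brain, and in newborn mice they still divide. Outside the brain they lose signals from neurons and astrocytes, and serum and a plastic surface act on them as on other macrophages. Other processes act on such samples: dissociation of a tissue at warm temperature switches on immediate early, heat shock and inflammatory genes quickly, and cells of other types pass through a sort or grow beside the microglia in a flask. Genes of the isolation response and of other cells were therefore held in lists of their own and set apart from the programs described below. The culture, the age it adds and the way the cells were isolated (shaking against enzymes and a sort) changed together between the groups and cannot be told apart. In such bulk samples, fewer cells of a type and less RNA per cell cannot be told apart either.

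Signals are given as log2 of the quantile-normalised processed signal. A difference is the mean of NB_Control minus the mean of NB_FACS on that scale (n = 3 arrays per group). The value after ± is its standard error (SE) from limma's fit over all arrays of the series. The spread within A_FACS and NB_Stim therefore enters each SE, which is not the spread of the compared arrays alone. A gene is said to have risen, fallen or changed where limma's adjusted p was under 0.05 over all 19555 genes tested. By that rule 5811 genes changed (29.7%), of which 3092 rose in culture (15.8%) and 2719 fell (13.9%). The 3 arrays of a group lay wholly above or below those of the other for 8646 genes (44.2%), and the median difference of all genes was 0.09. These shares are the background against which each list below should be read. Of the genes in lists of the isolation response, 79.1% changed (4 rose and 49 fell of 67). Of the genes in lists of other cell types, 40.9% changed (44 rose and 39 fell of 203). Of the genes found only in lists of macrophage and cell programs, 53.3% changed (286 rose and 205 fell of 922), and of the 18331 genes in no list 28.2% changed. The lists were chosen with earlier results of these data known. Their higher shares are therefore description and no separate support. On the 6 arrays, 67.3% to 77.4% of probes were well above background, and replicate 3 of both groups was hybridised on the second slide, where the 75th percentile of the signal was 474 and 509 against 173 to 315 on the first.

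Genes known to respond to tissue dissociation were higher in the sorted cells, and the part of isolation in these differences was not tested. Of 31 immediate early genes tested, 27 were lower in NB_Control and 1 was higher, with a median difference of -2.41. Egr1, a zinc finger factor induced within minutes of a stimulus, read 14.89, 14.95 and 14.42 on the NB_FACS arrays and 10.71, 10.88 and 9.74 on the NB_Control arrays. Klf4, a Krueppel-like factor of the same early wave, read 13.08, 13.16 and 12.89 and 7.77, 7.74 and 9.15, a difference of -4.82 ± 0.44 (adjusted p = 3.95e-05). Neither gene's groups overlapped. Egr3, a relative of Egr1, was not well above background on any NB_Control array and was at least 14.6-fold lower there (adjusted p = 2.07e-07). Fosl2, a Fos family partner in the AP-1 dimer, went the other way at 1.77 ± 0.32 (adjusted p = 0.00229), and Fos itself fell by 2.53. The mean of the 31 genes ran from 12.05 to 12.41 over the NB_FACS arrays, from 9.78 to 10.003 over the NB_Control arrays, from 13.02 to 13.36 in sorted adult cells and from 9.64 to 9.89 in NB_Stim, so the 2 sorted groups stood high and the 2 cultured groups low.

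Promoters of the early genes are shown because cyclic AMP response elements mark this class. The motif TGACGTCA (CRE, searched on both strands over 250 bases before the start) lay in 4 of 36 promoters of the tested members (11.1%) against 1.55% of all 32851 promoters of that length, and the CArG box lay in 13.9% against 1.47%. The AP-1 motif TGANTCA lay in 2.78% against 6.75%. Members were printed only if they fell and held a CRE or CArG match in the printed bases, so the choice set both features. Those printed are Ppp1r15a (the regulatory subunit of a phosphatase that restarts translation after stress) at chr7:45526269-45526418 (minus strand) and Dusp1 (a phosphatase of MAP kinases) at chr17:26508473-26508622 (minus strand). They fell by 4.04 and by 3.27. The lines give the 150 bases before the start, 5′ to 3′ on the strand of the gene, from RefSeq on build GRCm38.p6, with the motif in capitals.
Ppp1r15a: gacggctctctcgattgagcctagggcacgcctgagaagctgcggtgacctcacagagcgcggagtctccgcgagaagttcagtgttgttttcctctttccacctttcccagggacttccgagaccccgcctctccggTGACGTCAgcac
Dusp1: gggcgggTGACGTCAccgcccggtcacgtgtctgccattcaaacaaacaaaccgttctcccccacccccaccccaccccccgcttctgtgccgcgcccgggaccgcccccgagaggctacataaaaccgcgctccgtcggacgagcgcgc

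Heat shock chaperones followed in part. Hspa1a and Hspa1b, the inducible HSP70 genes, whose near-identical sequence lets their probes share signal, fell by 3.45 and 3.22, and 4 of 12 members fell in all, with a median of -0.32. Dnajb1, a co-chaperone of HSP70, fell by 1.24. Hspa1a read 10.85, 11.07 and 10.17 in NB_FACS and 7.17, 7.24 and 7.34 in NB_Control. In sorted adult cells it read 14.05 and 14.28, above every other array of the series.

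The inflammatory burst that dissociation is known to evoke was also higher in the sorted cells. Of 25 members, 19 fell in NB_Control and 3 rose, with a median of -2.56. Nfkbiz, an atypical IkB protein that licenses secondary NF-kB targets, read 11.19, 11.14 and 11.40 in NB_FACS and 6.32, 5.94 and 6.07 in NB_Control (difference -5.13 ± 0.16 (adjusted p = 1.59e-07)). Gem, a small GTPase induced by mitogens, read 11.65, 11.79 and 11.44 against 5.89, 5.42 and 5.81. Tnf, the main early cytokine of the burst, read 14.38, 14.30 and 14.58 against 10.40, 10.36 and 10.36. In all 3 genes the NB_FACS arrays lay more than 3 units above the NB_Control arrays. Among the 3 members that rose were Il6, a cytokine of the acute phase, at 2.30 ± 0.28 (adjusted p = 0.000216) and Ptgs2, the inducible cyclooxygenase, at 1.82 ± 0.26 (adjusted p = 0.000559). Members that the programs below share with these lists, or with lists of other cells or known genes, are marked as such where named. Program counts include them unless a count without them is given.

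**Figure D1:**
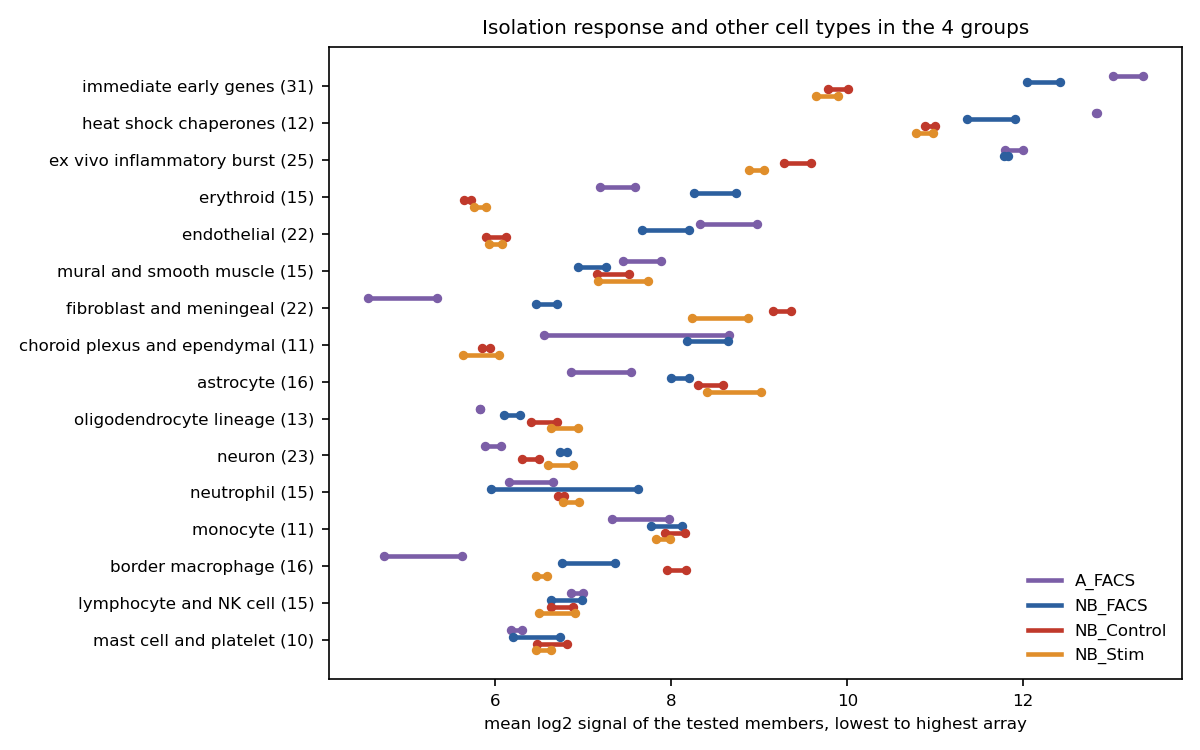
Mean log2 signal of the tested members of each list of the isolation response and of other cell types (number of members in brackets), drawn as a bar from the lowest to the highest array of a group, for A_FACS, NB_FACS, NB_Control and NB_Stim. The early gene list ran from 12.05 to 12.41 in NB_FACS against 9.78 to 10.003 in NB_Control, while the fibroblast list ran from 6.46 to 6.70 against 9.16 to 9.36.

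Markers of other cell types moved in both directions. Fibroblast and meningeal genes were higher in culture: 15 of 22 rose and 1 (Mfap4) fell, with a median of 3.29, and the mean of the list ran from 6.46 to 6.70 in NB_FACS, from 9.16 to 9.36 in NB_Control and from 4.55 to 5.34 in sorted adult cells. Col1a1, the main chain of type I collagen, read 6.68, 7.37 and 7.27 against 12.05, 12.27 and 12.70 (difference 5.23 ± 0.44 (adjusted p = 2.29e-05)). Mfap5, a protein of elastic microfibrils, was well above background on 1 of 3 NB_FACS arrays and read 1.26, 3.21 and 3.60 against 7.72, 8.23 and 8.77. Every tested member was well above background on at least 1 array of each group. In the mural and smooth muscle list 5 of 15 rose and 3 fell (3 and 3 without NB_FACS replicate 2 or NB_Control replicate 1 or 2), with Tagln and Acta2, actin-binding and actin genes of contractile cells, rising by 6.66 and 3.38 (-0.57 for Acta2 on its brightest probe), and Rgs5 and Vtn, markers of pericytes, falling by 6.24 and 3.31.

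Many endothelial and choroid plexus genes, and some globins, were higher in the sorted cells. Of 22 endothelial genes 10 fell and 1 rose, with a median of -1.36, and the list mean ran from 7.66 to 8.20 in NB_FACS against 5.90 to 6.12 in NB_Control. Cldn5, the claudin of the blood-brain barrier, read 12.27, 11.71 and 11.996 against 4.72, 5.07 and 4.53. Tek, the angiopoietin receptor, was not well above background on any NB_Control array and was at least 22.6-fold lower there (adjusted p = 3.8e-06), and Ptprb, a phosphatase of vessel walls, was at least 40.8-fold lower (adjusted p = 4.59e-06). Of 11 choroid plexus and ependymal genes 7 fell and none rose, with Dynlrb2, a dynein light chain of cilia, at -6.55 ± 0.84 (adjusted p = 0.000298) and Ttr, the transthyretin that choroid plexus secretes, at -4.91 ± 0.97 (adjusted p = 0.00374). The Ttr arrays read 15.73, 13.95 and 15.46 against 11.07, 11.01 and 8.33, so their spread was wide but did not bridge the groups. The globins Hbb-bt, Hbb-b2 and Hbb-b1, near copies whose probes may share signal, were not well above background in culture and were at least 1741, 802 and 210-fold lower there (adjusted p = 2.07e-07, 1.72e-06 and 1.84e-06). Hbb-bt is in the erythroid list, while Hbb-b2 and Hbb-b1 are in no list and were counted with such genes. Of the 15 erythroid genes 4 fell, 1 (Gfi1b, a repressor of blood progenitors) rose by 0.53 ± 0.16 (adjusted p = 0.0352) and 10 did not pass the test, with a list median of -0.13. The Gfi1b call was lost without NB_FACS replicate 1 or 2, without any of the NB_Control arrays and without NB_Stim replicate 1. A group of motile cilium genes, gathered by name after their values were seen, held 46 tested genes, of which 18 fell and 1 rose.

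Astrocyte genes were a mixed picture, with 6 of 16 rising (Chil1, S100b and Aldoc most) while Nes, an intermediate filament of progenitors, fell by 2.25. Of 23 neuronal genes 4 fell and none rose, 17.4% against 13.9% of all genes that fell. Of 13 oligodendrocyte lineage genes 2 rose and none fell, 15.4% against 15.8% of all genes that rose (without NB_Stim replicate 3, 4 oligodendrocyte genes rose). Among the blood lists, 1 of 15 neutrophil genes rose (Lcn2, an iron-sequestering lipocalin), and with the replicate number as a block 4 rose, with 2 rising once NB_FACS replicate 3 was left out. The mean of that list was 6.07 and 5.95 in NB_FACS replicates 1 and 2, 7.63 in replicate 3 and 6.71 to 6.78 in NB_Control, so the third sorted array stood apart within its own group. Of 15 lymphocyte genes Cd3e rose by 0.53 (-0.08 without the filter on dim probes) and Cd79b, a B cell receptor subunit that microglia also transcribe, fell by 4.87 (with the block 3 rose and 1 fell, and without NB_FACS replicate 1 or 2 or NB_Control replicate 1 Cd79b alone changed). Of 10 mast cell and platelet genes 1 rose and 2 fell (4 and 2 without NB_FACS replicate 3), and of 11 monocyte genes 4 rose and 3 fell, Hp (haptoglobin) at 4.34 ± 1.03 (adjusted p = 0.00992), though at -0.10 between the pair of arrays on the second slide, and Ly6c2 at -2.47 ± 0.40 (adjusted p = 0.00115). The part that these cells have in the programs below was not tested, and the value of the matching list is given where a program moved with one.

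Genes of brain border macrophages split. Of 16, 7 rose and 3 fell (6 and 1 without NB_Control replicate 1 or 2), with a median of 0.74, and the list mean ran from 6.76 to 7.36 in NB_FACS against 7.95 to 8.17 in NB_Control. Ms4a7, a tetraspan protein that separates border macrophages from microglia, read 7.06, 7.54 and 7.78 against 14.07, 14.22 and 14.09 (difference 6.66 ± 0.52 (adjusted p = 1.44e-05)). Pf4, a platelet and macrophage chemokine, read 9.83, 10.22 and 11.20 against 15.70, 15.82 and 13.87. Cd36, a scavenger receptor, and Cd38, an NAD hydrolase, rose by 4.36 and 3.82. Lyve1, the hyaluronan receptor that marks perivascular cells, was not well above background on any NB_Control array and was at least 20.7-fold lower there (adjusted p = 0.000574). Cd163, the haemoglobin scavenger, fell by 3.07, a call lost without NB_FACS replicate 3 or NB_Control replicate 1 or 2, and Mrc1, the mannose receptor, differed by 0.17 ± 0.19 (adjusted p = 0.563). Within the MS4A family 3 of 12 rose and none fell (25% changed, against 29.7% of all genes). Ms4a6d and Ms4a6c stood beside Ms4a7 at 2.44 and 1.69 (without NB_Control replicate 3 the MS4A count was 4 up and 1 down).

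**Figure D2:**
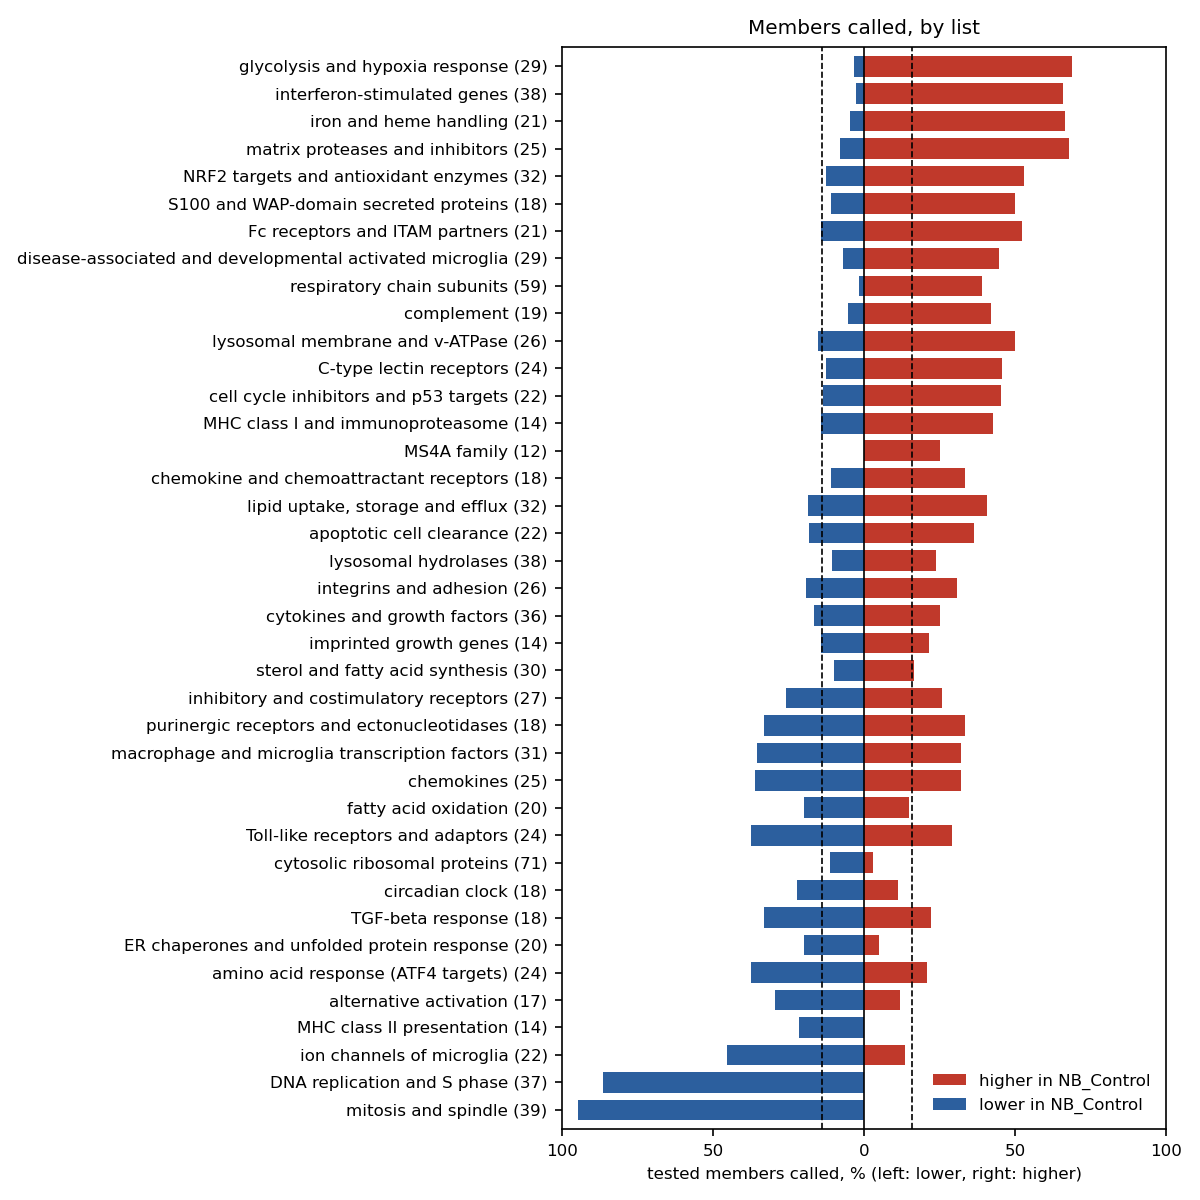
Share of tested members that rose (right, red) or fell (left, blue) in NB_Control against NB_FACS for each list of cell programs, with the number tested in brackets and dashed lines at the shares of all genes (15.8% rose and 13.9% fell). Lists of cell division stand at the lower end, where 37 of 39 mitosis genes fell, and the glycolysis, interferon, iron and matrix lists at the upper end.

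Cell division was the program with the largest share of changed genes. Of 39 genes of mitosis and the spindle 37 fell and none rose, with a median of -2.93. Mki67, the antigen that marks cycling cells, read 11.48, 11.22 and 11.21 in NB_FACS and 6.79, 6.52 and 7.09 in NB_Control (difference -4.50 ± 0.33 (adjusted p = 9.52e-06)). Top2a, the topoisomerase that untangles replicated chromosomes, read 12.92, 12.76 and 12.86 against 8.97, 8.86 and 9.42 (difference -3.76 ± 0.46 (adjusted p = 0.000216)). Nusap1, which bundles spindle microtubules, read 10.75, 10.83 and 11.495 against 6.21, 5.99 and 7.17. The groups were well apart in each. Troap and Kif4, a spindle-associated protein and a chromosome-bound kinesin, fell by 4.04 and 3.93. Mki67 read 6.25 and 7.50 in sorted adult cells and 5.92, 6.67 and 6.74 in NB_Stim, near the NB_Control values, so the 3 sorted newborn arrays were the high ones in the series.

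The replication machinery fell with it. Of 37 genes of DNA replication and S phase 32 fell and none rose, with a median of -1.35. Uhrf1, which copies DNA methylation onto new strands, read 11.89, 11.95 and 12.25 against 7.95, 7.85 and 8.42 (difference -3.96 ± 0.23 (adjusted p = 2.66e-06)). Mcm5, a subunit of the replicative helicase, read 11.77, 11.65 and 11.87 against 8.40, 8.36 and 8.69 (difference -3.28 ± 0.21 (adjusted p = 4e-06)), and Pole and E2f2, a replicative polymerase and a factor that switches on S phase genes, fell by 3.20 and 2.95. Neil3 and Shcbp1, a DNA glycosylase and a midbody protein of dividing cells that are in no list, were among the 20 largest falls at -4.65 ± 0.34 (adjusted p = 9.52e-06) and -4.06 ± 0.49 (adjusted p = 0.000195).

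Histone genes made up a family that no list held. Of 51 replication-dependent histones, gathered by symbol after their values were seen, 39 fell and 1 rose, with a median of -2.11. H2ac11, an H2A gene, read 9.79, 9.32 and 9.71 against 4.56, 4.75 and 4.89 (difference -4.87 ± 0.16 (adjusted p = 1.75e-07)), and H1f5, a linker histone, read 12.31, 11.44 and 11.52 against 7.42, 7.34 and 7.57 (difference -4.31 ± 0.43 (adjusted p = 6.76e-05)). H3c3, an H3 gene, was at least 12-fold lower in culture (adjusted p = 9.46e-06). Histone genes of a cluster are near copies, so their probes may share signal and the 51 are not 51 independent readings.

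The promoters of these groups are shown because 2 short motifs, the CCAAT box (CCAAT) and the cell cycle homology region (CHR, TTTGAA), are known from late cell cycle genes. On either strand of the 250 bases before the start, CCAAT lay in 27 of 35 promoters of the mitosis list (77.1%), in 60.5% for the replication list and in 39 of 47 histone promoters (83%), against 33.8% of all 32851 promoters. TTTGAA lay in 31.4%, 13.2% and 38.3% of the same groups against 16% of all, and both motifs together lay in 28.6% of the mitosis promoters against 5.55% of all. The lines below give the 150 bases before the start of the mitosis genes with the largest falls whose printed bases hold both, Mki67 at chr7:135716380-135716529 (minus strand), Top2a at chr11:99024190-99024339 (minus strand) and Ect2 (an exchange factor needed for cytokinesis) at chr3:27153879-27154028 (minus strand), and of 2 histones, H2ac11 at chr13:22042950-22043099 (minus strand) and H1f5 at chr13:21780626-21780775 (minus strand). The 2 histones were likewise printed for their large falls and a CCAAT match. Capitals mark the motifs, some of which read on the other strand (ATTGG and TTCAAA).
Mki67: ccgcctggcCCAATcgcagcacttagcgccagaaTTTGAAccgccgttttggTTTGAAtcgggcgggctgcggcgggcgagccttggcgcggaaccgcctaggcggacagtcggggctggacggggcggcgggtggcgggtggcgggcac
Top2a: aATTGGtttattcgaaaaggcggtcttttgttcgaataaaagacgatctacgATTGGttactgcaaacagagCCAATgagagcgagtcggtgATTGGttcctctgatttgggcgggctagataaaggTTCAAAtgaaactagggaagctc
Ect2: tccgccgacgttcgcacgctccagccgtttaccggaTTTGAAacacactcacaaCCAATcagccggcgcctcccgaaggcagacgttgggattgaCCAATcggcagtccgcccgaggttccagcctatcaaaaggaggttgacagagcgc
H2ac11: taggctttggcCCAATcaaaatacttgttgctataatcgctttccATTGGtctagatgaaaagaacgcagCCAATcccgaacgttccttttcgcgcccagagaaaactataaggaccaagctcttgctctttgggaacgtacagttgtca
H1f5: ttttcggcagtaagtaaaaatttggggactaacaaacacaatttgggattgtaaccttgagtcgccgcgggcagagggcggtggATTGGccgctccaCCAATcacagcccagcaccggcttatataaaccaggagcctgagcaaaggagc

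Brakes of the cell cycle rose in part. Of 22 cell cycle inhibitors and p53 targets 10 rose and 3 fell, with a median of 0.57. Cdkn2a, the locus of the inhibitors p16 and p19ARF, read 6.22, 5.93 and 6.33 in NB_FACS and 8.79, 8.95 and 8.73 in NB_Control (difference 2.66 ± 0.14 (adjusted p = 1.95e-06)). Phlda3, a p53 target that holds back AKT at the membrane, read 7.06, 7.05 and 7.22 against 11.32, 11.497 and 11.54 (difference 4.34 ± 0.34 (adjusted p = 1.52e-05)). Zmat3, an RNA-binding p53 target, read 8.87, 8.84 and 8.95 against 11.43, 11.33 and 11.38. Eda2r, a death receptor of the same class, rose by 2.84. Both groups were tight for these genes, and NB_Stim read 12.25, 12.26 and 11.85 for Phlda3. The best known member did not follow: Cdkn1a, the inhibitor p21, read 14.29, 14.05 and 14.51 against 14.17, 14.13 and 14.18, a difference of -0.12 ± 0.21 (adjusted p = 0.715). Cdkn1c, the inhibitor p57, fell by 0.89.

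**Figure D3:**
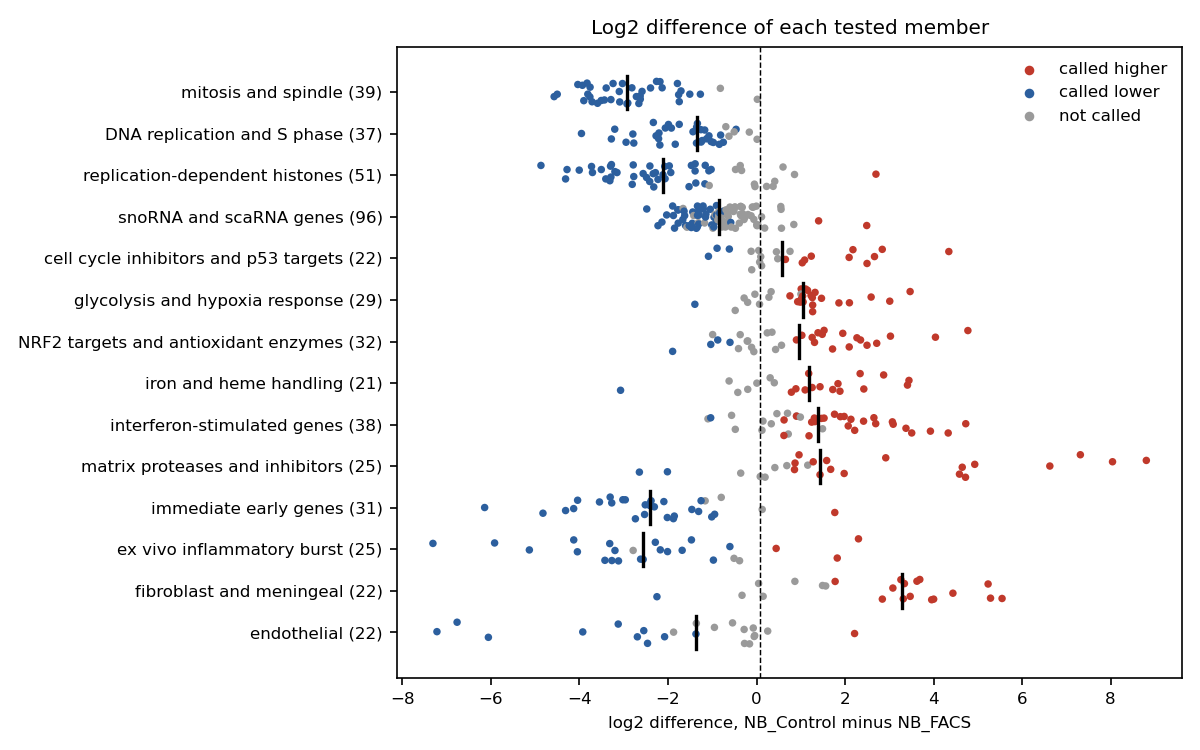
Log2 difference, NB_Control minus NB_FACS, of every tested member of 14 lists and families (number in brackets), red where the gene rose, blue where it fell and grey where it did not pass the test, with a black bar at the median of the group and a dashed line at the median of all genes (0.09). The mitosis genes centre on -2.93, the histones on -2.11 and the fibroblast genes on 3.29.

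Interferon-stimulated genes rose in culture, while the chemokine Cxcl10, often read as their marker, is counted with the isolation burst and fell by 7.31. Of 38 genes 25 rose and 1 (Gbp5) fell, with a median of 1.39. Samd9l, an antiviral brake on translation, read 5.28, 5.25 and 5.58 in NB_FACS and 10.15, 9.93 and 10.22 in NB_Control (difference 4.73 ± 0.32 (adjusted p = 6.75e-06)). Ifitm3, which blocks the entry of viruses at endosomes, read 9.39, 9.21 and 9.05 against 14.03, 13.58 and 13.03 (difference 4.33 ± 0.41 (adjusted p = 4.85e-05)). Oasl2, of the oligoadenylate synthetase family, read 5.71, 6.09 and 6.19 against 10.38, 10.05 and 9.33. All 3 were higher on each cultured array than on any sorted newborn array. Usp18, the protease that removes ISG15 and dampens the receptor, rose by 3.51. In NB_Stim Samd9l read 8.14, 7.75 and 8.52 and Ifitm3 11.66, 11.73 and 11.25, between the other newborn groups. Isg15 itself, the ubiquitin-like modifier, is outside the rule for naming and was looked up because the others moved: it read 10.30, 10.01 and 8.21 against 9.95, 9.69 and 9.31, with the third sorted array lowest, and did not pass the test (adjusted p = 0.859). Of 20 Ifi200 and Oas genes, gathered by symbol after their values were seen, 13 rose and none fell. Only 14 of the 20 were in no list, so this count overlaps with the lists.

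Promoters of this list are shown because the interferon-stimulated response element (ISRE, GAAA and GAAA with 2 of any bases between them) is the textbook site of this gene class. On either strand it lay in 12 of 28 promoters (42.9%) against 2.98% of all. Members were printed only if they rose and held a match in the printed bases, so the choice set both features. The members printed read 5.28, 5.36 and 3.997 against 8.35, 7.88 and 7.62 for Ifit1 and 5.40, 5.94 and 5.26 against 8.59, 8.11 and 7.98 for Ifit3, which bind viral RNA or its partners, while Oas1a, a sensor of double-stranded RNA, read 7.25, 7.46 and 7.26 against 10.85, 10.54 and 9.84. They lie at chr19:34640739-34640888 (plus strand), chr19:34583379-34583528 (plus strand) and chr5:120907526-120907675 (minus strand). Capitals mark the motif (TTTC and TTTC, likewise spaced, where it reads on the other strand), and the 2 matches before Oas1a overlap.
Ifit1: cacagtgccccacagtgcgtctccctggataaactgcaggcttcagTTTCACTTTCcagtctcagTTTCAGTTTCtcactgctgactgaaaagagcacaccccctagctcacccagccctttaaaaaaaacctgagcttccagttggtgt
Ifit3: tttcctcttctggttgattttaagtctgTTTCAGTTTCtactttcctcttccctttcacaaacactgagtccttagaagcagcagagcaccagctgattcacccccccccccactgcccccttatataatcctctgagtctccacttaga
Oas1a: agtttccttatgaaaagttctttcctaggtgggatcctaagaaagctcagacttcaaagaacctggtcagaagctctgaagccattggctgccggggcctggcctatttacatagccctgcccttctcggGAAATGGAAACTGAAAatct

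Antigen presentation genes of class I and class II are given apart. Of 14 genes of MHC class I and the immunoproteasome 6 rose and 2 fell, Nlrc5, the class I transactivator, at 2.71 ± 0.34 (adjusted p = 0.000255), H2-T23 at 1.65 ± 0.19 (adjusted p = 0.000145) and H2-D1 at 1.101 ± 0.13 (adjusted p = 0.000192) (class I genes are near copies, so their probes may share signal). Without NB_FACS replicate 2 the count was 4 and 0, and without NB_FACS replicate 1 or either of NB_Control replicates 1 and 2 it was 4 and 1. Of 14 class II genes none rose and 3 fell (21.4% changed, against 29.7% of all genes). With the replicate number as a block 1 rose and 5 fell, and without 1 of the A_FACS arrays none rose and 5 fell (1 and 5 without NB_Stim replicate 3). Cd74, the invariant chain, read 13.34, 13.24 and 13.10 against 10.94, 10.92 and 8.12, with the third cultured array far below the other pair (difference -3.23 ± 0.74 (adjusted p = 0.00804)). H2-Ob, a brake on peptide loading, and Cd86, a costimulatory ligand, fell by 3.67 and 2.60. H2-Ab1, a chain of the class II dimer itself, differed by -2.47 (SE 0.84) and did not pass the test, but passed it with the replicate number as a block (adjusted p = 0.0263).

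Most genes of glycolysis rose, and genes of the respiratory chain rose in part, while fatty acid oxidation is given further below. Of 29 genes of glycolysis and the hypoxia response 20 rose and 1 (Pfkfb3) fell, with a median of 1.04. Pkm, pyruvate kinase, read 8.72, 8.56 and 7.86 in NB_FACS and 11.18, 11.10 and 10.62 in NB_Control (difference 2.59 ± 0.27 (adjusted p = 8.41e-05)). Vegfa, the vascular growth factor, read 5.17, 5.17 and 5.27 against 9.12, 9.43 and 7.47, with the third cultured array lower than the other pair but still above every sorted newborn array (difference 3.47 ± 0.56 (adjusted p = 0.00118)). Ankrd37, a target of hypoxia factors, rose by 2.10. Of 59 subunits of the respiratory chain 23 rose and 1 (Ndufs8) fell, but with small differences: the largest rise was 1.02 (Ndufs5) and the median was 0.47. Leaving out replicate 1 or 2 of either group brought the rises to 13 or 14, with the same fall of 1 gene.

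Defence against oxidants and electrophiles rose as well. Of 32 targets of the factor NRF2 and antioxidant enzymes 17 rose and 4 fell, with a median of 0.96. Without Gsr, which is also in the monocyte list, 16 of 31 rose and 4 fell. Nqo1, a quinone reductase that was well above background on 1 of 3 NB_FACS arrays, read 3.31, 2.46 and 3.48 against 7.11, 7.25 and 9.21 (difference 4.77 ± 0.80 (adjusted p = 0.00144)). Cat, catalase, read 10.38, 10.32 and 9.86 against 12.97, 12.84 and 13.83 (difference 3.03 ± 0.25 (adjusted p = 2.13e-05)). Me1, the malic enzyme that makes NADPH, read 5.28, 5.20 and 5.57 against 9.18, 9.21 and 9.78 (difference 4.04 ± 0.45 (adjusted p = 0.000118)). The third cultured array was the highest in each, and no sorted newborn array reached a cultured one. Gclm, a subunit of the enzyme that starts glutathione synthesis, rose by 2.72. Mt2, a metallothionein, and the factor gene Nfe2l2 itself fell by 1.90 and 0.88. The antioxidant response element (TGACNNNGC, on either strand) lay in 23.5% of the list's promoters against 10.2% of all.

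Families of detoxifying enzymes were gathered by symbol after their values were seen, so their counts are description and no separate support. Only 14 of the 17 glutathione S-transferases were in no list. Of 11 aldo-keto reductases 8 rose, of 17 glutathione S-transferases 10 rose and of 4 retinaldehyde dehydrogenases 3 rose, and none fell in any of these. Akr1b8, an aldo-keto reductase, read 6.38, 6.72 and 6.996 against 11.49, 11.51 and 14.06 (difference 5.65 ± 0.59 (adjusted p = 8.73e-05)). Gsta3, a glutathione S-transferase, was not well above background on any NB_FACS array and was at least 19.5-fold higher in culture (adjusted p = 8.17e-05). Members of each family are related in sequence and may share signal.

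Iron and heme handling was among the most uniform programs. Of 21 genes 14 rose and 1 (Cd163) fell, with a median of 1.18. Without 3 members that also stand in lists of other cells (Cd163, Lcn2 and Cp) 12 of 18 rose and none fell. Slc48a1, which exports heme from the phagolysosome, read 11.35, 11.36 and 11.25 in NB_FACS and 14.70, 14.70 and 14.89 in NB_Control (difference 3.44 ± 0.15 (adjusted p = 6.87e-07)). Cp, ceruloplasmin, which oxidises iron for export, read 4.13, 4.46 and 4.74 against 7.81, 7.86 and 7.90 (difference 3.41 ± 0.23 (adjusted p = 6.66e-06)). Slc11a1, the phagosomal divalent metal transporter, rose by 1.72. The arrays of a group lay within 1 unit of each other for Slc48a1 and Cp.

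Lipid and lysosomal genes changed in both directions. Of 32 genes of lipid uptake, storage and efflux 13 rose and 6 fell. Without Cd36, which is also in the border macrophage list, 12 of 31 rose and 6 fell. Fabp4, a fatty acid carrier of fat cells and macrophages, read 4.47, 4.77 and 4.93 against 9.20, 9.27 and 9.35 (difference 4.55 ± 0.20 (adjusted p = 6.87e-07)). Pparg, the lipid-sensing nuclear receptor, read 5.33, 5.90 and 6.15 against 8.62, 8.55 and 10.67 and was lower in NB_Stim, at 4.29, 3.93 and 5.85. Msr1, a scavenger receptor, rose by 3.89. Abcg1, a cholesterol exporter, Dgat2, which makes triglyceride, and Hilpda, a droplet protein that hypoxia induces, fell by 2.35, 1.74 and 1.19. In sterol and fatty acid synthesis 5 of 30 rose and 3 fell, near the background (3 to 4 and 1 without any 1 of the 6 arrays other than NB_FACS replicate 3, and 4 and 1 without NB_Stim replicate 1), but the stearoyl-CoA desaturases parted, Scd1 at 2.51 ± 0.29 (adjusted p = 0.000169) and Scd2 at -2.75 ± 0.39 (adjusted p = 0.000506). Fatty acid oxidation stayed small, 3 of 20 rising and 4 falling, with Cpt2, a carnitine transferase, at 1.22 ± 0.20 (adjusted p = 0.00138).

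Of 38 lysosomal hydrolases 9 rose and 4 fell, with a median of 0.07. Acp5, tartrate-resistant acid phosphatase, read 11.90, 11.95 and 12.06 against 6.17, 6.47 and 8.52 (difference -4.91 ± 0.64 (adjusted p = 0.000333)). Arsb, arylsulfatase B, read 13.42, 13.32 and 13.45 against 9.99, 9.91 and 9.82 (difference -3.49 ± 0.12 (adjusted p = 2.1e-07)). Both were high on the sorted newborn arrays, and Acp5 was the only one of the pair that was low in sorted adult cells as well (4.42 and 6.62). Lipa, the acid lipase, went up from 12.85, 12.80 and 12.85 to 15.32, 15.17 and 15.76, and Sgsh, a sulfamidase, rose by 2.28. The membrane of the organelle moved upward, 13 of 26 genes rising and 4 falling (9 and 2 without NB_FACS replicate 1, and 10 and 1 without NB_FACS replicate 2 or NB_Control replicate 1), with Gpnmb, a glycoprotein of stressed lysosomes, at 9.48, 9.98 and 10.73 against 14.51, 14.27 and 15.21 (a call lost within slide 1 and without NB_FACS replicate 1), Atp6v0d2, a proton pump subunit of osteoclasts and macrophages, at 2.35 ± 0.35 (adjusted p = 0.000758) and Mitf, a factor that drives such genes, at 1.42 ± 0.13 (adjusted p = 4.23e-05).

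Receptors of pattern recognition and uptake moved in both directions. Mertk, named among them, also stands in the list of further homeostatic genes. Of 24 C-type lectins 11 rose and 3 fell. Clec4n, the mannan receptor Dectin-2, read 5.75, 6.22 and 6.49 in NB_FACS and 12.29, 12.50 and 12.87 in NB_Control (difference 6.40 ± 0.24 (adjusted p = 2.84e-07)), and Clec4b1, of the same gene cluster, rose by 4.67. Marco, a scavenger receptor for bacteria and particles, read 2.39, 2.77 and 3.54 against 10.90, 10.88 and 11.06 and Fpr1, the formyl peptide receptor, 1.91, 1.70 and 4.86 against 11.70, 11.77 and 9.12, each well above background on 1 of 3 NB_FACS arrays. Every cultured array of both genes stood over 4 units above the highest sorted newborn array. Of 18 receptors for chemokines and other attractants 6 rose and 2 fell, Fpr2 by 4.73 and Ccr3 by at least 3.68-fold (adjusted p = 8.67e-05), with Cxcr5, a receptor best known from B cells, falling by 1.65. Of 22 genes of apoptotic cell clearance 8 rose and 4 fell (6 and 1 without NB_FACS replicate 2, and 7 and 2 without replicate 1 of either group), Anxa1 (annexin A1) at 6.31 ± 0.53 (adjusted p = 2.13e-05), Cd5l at 3.56 ± 0.61 (adjusted p = 0.00162) and Stab2 at 3.01 ± 0.43 (adjusted p = 0.000586), against Mertk, the main phagocytic kinase of microglia, at -0.64 ± 0.16 (adjusted p = 0.0132), a call lost without NB_FACS replicate 2 or NB_Control replicate 1. Without Mertk, Pros1 and Stab1, which are also in lists of other cells or known genes, 7 of 19 rose and 3 fell.

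Toll-like receptors split within the family, 7 of 24 genes rising and 9 falling. Tlr8, an endosomal RNA sensor, read 3.35, 3.72 and 3.55 against 8.34, 8.58 and 8.50 (difference 4.94 ± 0.14 (adjusted p = 1.09e-07)). Tlr2, the lipoprotein sensor, read 14.92, 15.04 and 15.26 against 12.25, 12.15 and 11.47 (difference -3.12 ± 0.26 (adjusted p = 2.13e-05)). The 2 receptors thus moved in opposite directions with no overlap of the arrays. Tlr4 and its partner Ly96 rose by 1.55 and 1.49, while Tlr9 fell by 1.51, Cd180 fell by 1.44 and the adaptor Ticam1 fell by 1.82. Tlr2 is also in the list of the isolation burst.

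Of 21 Fc receptors and partners that signal through ITAM motifs 11 rose and 3 fell (7 rose without NB_FACS replicate 2 or 3 or NB_Control replicate 1 or 2). Pirb, an inhibitory receptor for class I molecules, read 6.53, 6.64 and 6.74 against 10.44, 10.62 and 9.91 (difference 3.69 ± 0.19 (adjusted p = 1.72e-06)), and in NB_Stim it read 6.72, 6.57 and 6.99, at the level of the sorted cells. Fcgr4 and Fcgr2b, an activating and an inhibitory Fc receptor, rose by 2.69 and 2.41. Trem1, an amplifier of inflammation, was not well above background on any NB_Control array and was at least 3.37-fold lower there (adjusted p = 3.25e-05). Among 16 paired immune receptors (Pira, Sirpb1, Cd300 and Lilr genes and their like, gathered after their values were seen) 13 rose and none fell, with a median of 2.60, Sirpb1b at least 15.4-fold higher (adjusted p = 2.38e-05) and Cd300ld3 at 4.92 ± 0.40 (adjusted p = 1.79e-05). These genes are near copies, and their probes may read one another. Only 10 of the 16 were in no list, so this count overlaps with the lists.

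Checkpoint and purine receptors changed in both directions. Siglech and P2ry13, named here, also stand in the list of further homeostatic genes. Of 27 inhibitory and costimulatory receptors 7 rose and 7 fell, Cd200r4 and Cd200r1 (receptors of the CD200 family) at 2.85 ± 0.36 (adjusted p = 0.000284) and 2.40 ± 0.32 (adjusted p = 0.000344) and Cd274 (PD-L1) at 2.46 ± 0.28 (adjusted p = 0.000152), against Siglech at -5.58 ± 0.18 (adjusted p = 1.59e-07), Siglecf at -3.07 ± 0.28 (adjusted p = 3.3e-05) and Cd33 at -1.79 ± 0.17 (adjusted p = 5.53e-05), all sialic acid binding lectins. Of 18 purinergic genes 6 rose and 6 fell (3 rose without NB_FACS replicate 1 or 2, NB_Control replicate 1 or NB_Stim replicate 1). P2ry13, an ADP receptor of resting microglia, read 10.46, 10.16 and 9.76 against 5.30, 5.66 and 4.75 (difference -4.89 ± 0.25 (adjusted p = 1.58e-06)), and P2rx1, an ATP-gated channel, fell by 3.32. P2rx4, another ATP-gated channel, rose by 1.93. Nt5e (CD73), which makes adenosine, was not well above background on any NB_FACS array and was at least 4.75-fold higher (adjusted p = 0.00239), while Entpd2, which starts the same chain from ATP, fell by 2.58. Ion channels of microglia fell more than they rose, 10 of 22 against 3 (5 against 1 without NB_FACS replicate 1 or 2, 6 against 3 without NB_FACS replicate 3, 5 against 3 without NB_Control replicate 1 or 2, and 7 against 1 without NB_Control replicate 3), the potassium channel Kcnk12 at -3.17 ± 0.39 (adjusted p = 0.000231), Kcnk6 at -1.21 ± 0.19 (adjusted p = 0.000972) and the calcium channel Orai1 at -1.21 ± 0.24 (adjusted p = 0.00427), with the proton channel Hvcn1 at 0.86 ± 0.14 (adjusted p = 0.00104).

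The genes of matrix turnover rose together with fibroblast genes. Of 25 matrix proteases and inhibitors 17 rose and 2 (Adamts1 and Plau) fell, with a median of 1.43. Timp1, an inhibitor of metalloproteases, read 5.09, 5.11 and 5.54 in NB_FACS and 13.23, 13.30 and 13.32 in NB_Control (difference 8.04 ± 0.37 (adjusted p = 9.38e-07)), a fold of 264. Mmp3, stromelysin, was not well above background on any NB_FACS array and was at least 49-fold higher (adjusted p = 9.41e-07). Serpinb2, the inhibitor PAI-2 that macrophages also make, was at least 109-fold higher (adjusted p = 3.35e-07). Serpina3n, an acute phase protease inhibitor, rose by 6.63. Beside these, Loxl2 and Ccn2, a collagen cross-linker and a matricellular protein, were at 5.29 ± 0.56 (adjusted p = 8.97e-05) and 5.92 ± 0.30 (adjusted p = 1.58e-06), and Thy1, a surface marker of fibroblasts and neurons, read 5.68, 4.82 and 5.37 against 11.05, 11.41 and 11.23. The fibroblast list rose over the same arrays (6.46 to 6.70 against 9.16 to 9.36). Of 38 collagen chains, gathered by symbol after their values were seen, 14 rose and 2 fell. Of these 38, 7 are members of the fibroblast list, so the counts overlap. The part of fibroblasts in the matrix and collagen values was not tested.

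Secreted defence proteins were among the largest rises. Of 18 S100, WAP-domain and acute phase proteins 9 rose and 2 fell, with a median of 1.30, and without 3 members shared with blood cell lists 7 of 15 rose and 2 fell, with a median of 0.23. Saa3, a serum amyloid A made by macrophages, read 8.41, 8.60 and 10.03 against 16.19, 16.47 and 14.17 (difference 6.60 ± 0.58 (adjusted p = 3e-05)), and S100a6, a calcium-binding protein, 9.70, 10.13 and 10.29 against 15.46, 15.46 and 15.69 (difference 5.50 ± 0.27 (adjusted p = 1.35e-06)). Wfdc1, a protein of the WAP class, fell by 2.51. Complement rose in 8 of 19 genes and fell in 1 (5 rose without NB_FACS replicate 1 or 2 or NB_Control replicate 1): C1s1 and Serping1, a protease of the classical pathway and its inhibitor, rose by 2.31 and 1.87, Cfb, of the alternative pathway, fell by 2.84, and the 3 C1q chains C1qa, C1qb and C1qc, which microglia make in quantity, differed by -0.25 ± 0.18 (adjusted p = 0.335), -0.19 ± 0.15 (adjusted p = 0.391) and -0.36 ± 0.32 (adjusted p = 0.457). Of 29 genes that mark disease-associated or developmental activated microglia 13 rose and 2 fell, Cybb (the NADPH oxidase subunit) at 4.62 ± 0.68 (adjusted p = 0.000644), Lyz2 (lysozyme) at 3.40 ± 0.38 (adjusted p = 0.000122) and Lgals1 (galectin 1) at 3.28 ± 0.36 (adjusted p = 0.000118). Without Trem2 and Vim, which are also in the homeostatic and astrocyte lists, 12 of 27 rose and 2 fell. Of 17 genes of alternative activation 2 rose and 5 fell (3 fell without NB_FACS replicate 2), Tgm2 (transglutaminase 2) at 2.04 ± 0.25 (adjusted p = 0.000242) and Cish (a brake on cytokine receptors) at -2.43 ± 0.15 (adjusted p = 4.33e-06).

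Cytokines and chemokines overlap with the isolation response, so each count is given with and without the shared members. Of 36 cytokines and growth factors 9 rose and 6 fell, and of the 30 that are in no other set 8 rose and 3 fell. Ereg, an EGF receptor ligand, was not well above background on any NB_FACS array and was at least 21.6-fold higher (adjusted p = 1.95e-06), and Inhba, an activin subunit, and Il33, an alarmin of stromal and glial cells, rose by 3.27 and 3.23. Csf1, the growth factor of microglia themselves, read 11.53, 11.46 and 11.13 against 8.40, 8.60 and 8.82 (difference -2.77 ± 0.40 (adjusted p = 0.000564)), and Pdgfb fell by 2.67. Of 25 chemokines 8 rose and 9 fell, and of the 16 in no other set 6 rose and 3 fell. Cxcl5, a neutrophil attractant, was not well above background on any NB_FACS array and was at least 36.6-fold higher (adjusted p = 9.13e-05) at 8.81, 8.63 and 8.82 in NB_Control, and it read 2.37, 2.61 and 6.14 in NB_Stim. Cxcl14 rose by 3.54 and Ccl24 fell by 3.47, while Cxcl2 and Ccl3, of the isolation burst, fell by 3.43 and 3.27.

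Transcription factors of macrophages and microglia changed often and both ways, 10 of 31 rising and 11 falling. Id3, an inhibitor of helix-loop-helix factors, read 9.23, 9.34 and 9.96 against 11.69, 11.96 and 13.40, and Nr1h3 (the liver X receptor alpha) and Cebpd rose by 1.87 and 1.85. Jdp2, an AP-1 repressor, read 12.16, 12.16 and 12.78 against 8.84, 8.96 and 9.25 (difference -3.35 ± 0.21 (adjusted p = 4.58e-06)), and the NF-kB subunits Rel and Nfkb1 fell by 2.60 and 2.45. Tgif2, a repressor of TGF-beta responses that is in no list, read 12.30, 12.42 and 12.29 against 7.95, 8.05 and 7.40 (difference -4.54 ± 0.22 (adjusted p = 1.02e-06)). Of 18 TGF-beta response genes 4 rose and 6 fell, the matrix-bound latency proteins Ltbp1 and Ltbp3 at 3.26 ± 0.23 (adjusted p = 7.46e-06) and 2.38 ± 0.38 (adjusted p = 0.00116) and the corepressor Skil at -1.63 ± 0.18 (adjusted p = 0.000109).

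Growth, stress and timing programs differed widely in the share that changed, which was 29.7% for all genes. It was 58.3% for the amino acid response and 50% for integrins and adhesion. For imprinted and clock genes, at 35.7% and 33.3%, it was near that of all genes. For the unfolded protein response and ribosomal proteins, at 25% and 14.1%, it was lower. Of 24 genes of the amino acid response 5 rose and 9 fell (3 rose without NB_FACS replicate 1 or NB_Control replicate 3): Slc7a5, which imports large neutral amino acids, read 10.88, 10.45 and 10.10 against 7.65, 7.70 and 7.20, the serine synthesis enzymes Phgdh and Psat1 fell by 2.63 and 2.04 and Atf4 itself fell by 1.90, while Atf5 and the cystine importer Slc7a11 rose by 2.46 and 2.50. Of 20 genes of the unfolded protein response 1 rose and 4 fell, Herpud1, of the degradation complex, reading 13.34, 13.35 and 12.95 against 9.72, 9.80 and 9.20. Of 71 cytosolic ribosomal proteins 2 rose and 8 fell (2 and 15 with the replicate number as a block, and 1 to 2 and 4 without NB_FACS replicate 2 or NB_Control replicate 1), and none of the differences reached 1. Of 18 clock genes 2 rose and 4 fell (4 and 5 without NB_Stim replicate 3), Dbp at 2.16 ± 0.28 (adjusted p = 0.000283), Cry1 at -2.19 ± 0.21 (adjusted p = 5.67e-05) and Per2 at -1.36 ± 0.26 (adjusted p = 0.0029). Of 14 imprinted growth genes 3 rose and 2 fell, Igf2r at 3.36 ± 0.32 (adjusted p = 4.79e-05) and Peg10 at -2.42 ± 0.47 (adjusted p = 0.00341). Without Meg3 and Dcn, which are also in the neuron and fibroblast lists, 2 of 12 rose and 2 fell. Of 26 integrins and adhesion genes 8 rose and 5 fell (3 fell without any 1 of NB_FACS replicates 1 and 2 and NB_Stim replicates 1 and 2), Alcam, a ligand of CD6, at 5.35 ± 0.44 (adjusted p = 2.02e-05) and Itga5, the fibronectin receptor chain, at -2.45 ± 0.28 (adjusted p = 0.000145). Among noncoding RNAs, 41 of 96 small nucleolar and Cajal body RNA genes fell and 2 rose (a group formed after the values were seen), with a median of -0.85, while of 2257 lncRNA genes 10.1% changed. Probes of such short RNAs can also read the host transcript.

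Further homeostatic genes, beyond those the study followed by RT-qPCR, fell in 13 of 26 and rose in 1, with Slc2a5, a fructose transporter, at -7.48 ± 0.30 (adjusted p = 3.5e-07) and Gpr84, a receptor for medium-chain fatty acids, at -5.15 ± 0.21 (adjusted p = 3.99e-07). All 7 genes of the RT-qPCR set fell. Cx3cr1 is among them and marked the sort gate of the NB_FACS cells, and the part of the gate in its difference was not tested. Ptprc, looked up because it encodes the other gate marker CD45, read 8.02, 8.30 and 7.82 against 8.52, 8.53 and 8.17 and did not pass the test.

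The 20 largest rises and 20 largest falls were ranked over genes well above background on all 6 arrays, with groups that did not overlap, outside the lists of isolation, other cells and known microglial genes. Those described next are in no program list, except Adam8, which is in the matrix list. Hmga2, a chromatin protein of embryonic and growing cells, read 4.71, 4.65 and 3.996 in NB_FACS and 10.29, 10.46 and 10.35 in NB_Control (difference 5.91 ± 0.34 (adjusted p = 2.49e-06)). Plxna1, a semaphorin receptor, read 7.60, 7.65 and 7.52 against 12.40, 12.23 and 13.39 (difference 5.08 ± 0.29 (adjusted p = 2.3e-06)). Both were lower on each of the 5 sorted arrays of either age than on any NB_Control array. Ptx3, a soluble pattern receptor, Myof, a membrane repair protein, and Adam8, a leukocyte metalloprotease, rose by 5.40, 4.999 and 4.93. On the other side, Cass4, a scaffold of adhesion signals, read 10.23, 10.36 and 9.84 against 4.48, 4.91 and 4.20 (difference -5.61 ± 0.37 (adjusted p = 5.72e-06)), and Lsp1, an actin-binding protein of leukocytes, 11.16, 11.18 and 11.07 against 6.64, 6.55 and 6.64 (difference -4.53 ± 0.21 (adjusted p = 8.82e-07)). Cryba4, a crystallin chain, read 10.30, 10.33 and 10.24 against 5.41, 5.78 and 4.47, and Cd34, a sialomucin of progenitors and vessels, 11.27, 11.42 and 11.42 against 7.92, 8.08 and 5.32, with the third cultured array lowest in both. Npnt, an integrin ligand, Sdk1, an adhesion molecule, Hif3a, a hypoxia factor, and Liph, a phosphatidic acid lipase, fell by 4.26, 4.39, 4.24 and 4.16.

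A few genes were seen on one side only. Prl2c2 (proliferin), a prolactin relative of placenta and of growing fibroblast lines, was not well above background in NB_FACS and was at least 156-fold higher in culture (adjusted p = 2.57e-05), at 10.06, 10.53 and 11.96 against 5.65, 5.997 and 8.74 in NB_Stim. Ankrd1 and Cyp1b1, a target of mechanical signalling and an aryl hydrocarbon receptor target, were at least 59.1 and 58.4-fold higher (adjusted p = 2.3e-06 and 1.09e-07), and Gzme, a granzyme, at least 26.8-fold (adjusted p = 0.000144). Of 12 granzymes and mast cell proteases 6 rose and none fell (50%), a group formed after the values were seen. Its members are related in sequence, so their probes may share signal. Among those that rose, Gzmf and Gzmg had a mean of only 3.94 in NB_Control, at least 1.30 and 1.31-fold higher. Gzmb and Gzmk, at 0.07 and 0.46, did not pass the test. Of 32 cornified envelope genes, likewise grouped, 21.9% changed (6 rose and 1 fell), below the 29.7% of all genes. Crct1, of that group, read 4.18, 3.99 and 1.78 against 11.81, 11.92 and 11.49 and was well above background on 2 of 3 NB_FACS arrays. In the other direction Drc1, of the ciliary dynein regulatory complex, was at least 15.5-fold lower in culture (adjusted p = 0.00244), beside the ependymal list, whose mean ran from 8.18 to 8.64 in NB_FACS against 5.85 to 5.94 in NB_Control. The part of ependymal cells in the Drc1 value was not tested.

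**Figure D4:**
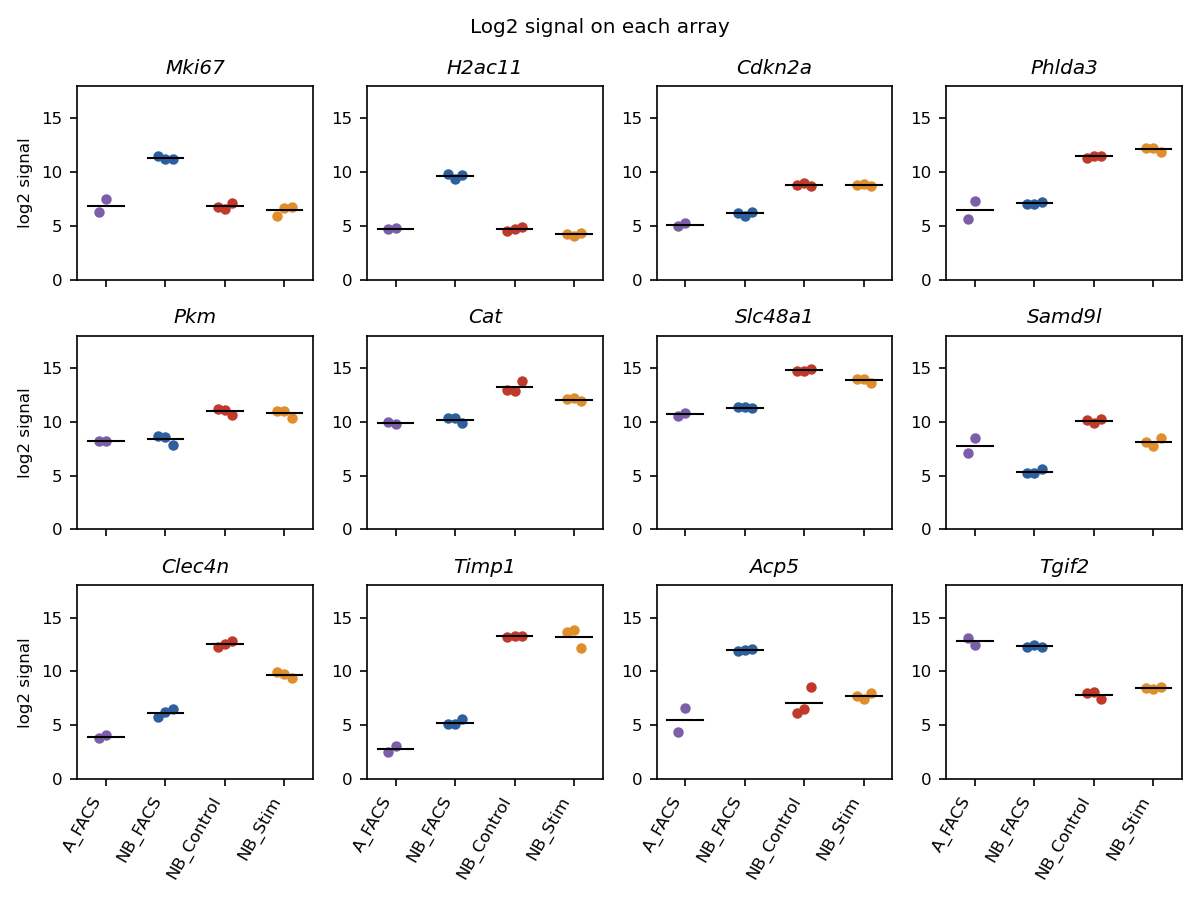
Log2 signal of 12 genes on each array, with a black line at the group mean, in A_FACS (2 arrays), NB_FACS, NB_Control and NB_Stim (3 each). Mki67, H2ac11, Acp5 and Tgif2 are high in NB_FACS, whereas Cdkn2a, Phlda3, Pkm, Cat, Slc48a1, Samd9l, Clec4n and Timp1 are high in NB_Control, with no overlap between these 2 groups in any of the 12.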

How the data were processed

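Total RNA was labelled with Cy3 and hybridised to 11 single-colour Agilent mouse arrays. Per the file headers, the authors' scans were quantified with Feature Extraction 11.5.1.1, and the deposited processed signal is an intensity with its background already subtracted. The authors' deposited value table held the same intensities for all 62927 rows within a relative tolerance of 1e-05, so neither source is a ratio or a log value. These intensities were turned to log2 and quantile normalised over the 11 arrays, as in the methods. Of 60037 distinct probes, 138 with outlier flags were dropped, and 44727 were kept that at least 1 group had well above background on each of its arrays. Symbols came from RefSeq through the probe accessions (36264 probes, 60.4%), probes of a gene were averaged (4901 genes on several probes), and probes without a symbol were left out. Groups were taken from the sample titles.

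The test was limma 3.58.1 (R 4.3.3; lmFit and eBayes, two-sided) over all 11 arrays with 1 mean per group, Benjamini-Hochberg adjusted over 19555 genes. At an unadjusted p under 0.05, 7658 genes passed. It was checked on data with known changes. A gene not well above background on any array of a group has only a bound: the mean of the bright group over the dim group's mean, where each array took the higher of its lowest signal well above background and the probe's own. Fold bounds are called "at least". The number of arrays, not counting error, limits precision, and no spot was saturated.

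The members, 57 lists and families were chosen with earlier results of these data known. Genes named are the 20 largest rises and falls among genes well above background on all 6 arrays whose groups did not overlap, and the 8 largest bounds each way, outside the lists of isolation, other cells and known genes, up to 4 changed members of a list in each direction, its first 3 members, and the genes whose promoters are printed. Genes named by no such rule are marked as chosen after their values were seen.

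Deviations from the group means of same-numbered NB_FACS and NB_Control arrays correlated at 0.36, 0.31 and 0.45. Replicates 1 and 2 of unlike number correlated at 0.19 both ways, and pairs with a single replicate 3 at -0.40 to -0.30. Replicate 3 of both groups lay on the second slide, so pairing and slide cannot be told apart for it. The labels give no pairing, and the main test used none. Alternatives were scaling to the 75th percentile, normexp background (offset 50), the value table, 2 other filters, the brightest probe, probe level, the 6 arrays alone, slide and replicate blocks, each slide alone, leaving out each array, a minimum difference and the methods' analysis of variance with Tukey's adjustment. Promoters (RefSeq, GRCm38.p6) came from a table of 32851 entries, searched over 250 bases before the start. Figures were drawn with matplotlib 3.10.9. A few results under these rules are not reported here.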

Additional observations from a re-analysis of the deposited data

How the results depend on the processing

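The count of 5811 changed genes (3092 up, 2719 down) stayed within 1.5 times under most alternatives. Leaving out 1 array at a time gave 4516 to 6453 changed genes, 2335 to 3489 up and 2031 to 3004 down. With the replicate number as a block, 7328 genes changed, 5775 of the original 5811 among them, and the block changed the call of 1 named gene, H2-Ab1, and the list counts given beside the results (neutrophil, lymphocyte, ribosomal and MHC class II genes). Other lists moved as well, such as heat shock chaperones (1 up and 5 down) and endothelial genes (1 up and 12 down). With the slide as a block 7615 changed, and within the first slide 8044. Larger moves came from the methods' analysis of variance with Tukey's adjustment after Benjamini-Hochberg (3545 changed, 1889 up and 1656 down; 5434 at the methods' own threshold), from a minimum log2 difference of 1 (3159 changed, 1582 up and 1577 down) and from testing 44727 probes, named or not (11441 changed, 5740 up and 5701 down). The second is stricter by construction. The first also drops the moderation of variances and adjusts over all pairs of groups, and which of these lowers the count was not tested. Scaling to the 75th percentile gave 5955, normexp 6120, the deposited values 5811, no filter on dim probes 5371 of 23283 genes, the strict filter 5254 of 16663, the brightest probe 5719 and the 6 arrays alone 5828. The strict filter on dim probes removes markers that are absent from 1 group, so it cut the counts of other cell types most.

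Of 250 genes named, Tukey's adjustment after Benjamini-Hochberg lost the call of 18, Cd38, Cd74, Drc1, Gpnmb, Hp, Ifit3, Nr1h3, Nt5e, Orai1, Peg10, Pparg, S100b, Serping1 and Ttr among them. Differences that changed sign were Acta2 on its brightest probe (-0.57), Cd3e without the filter on dim probes (-0.0835), Hp within the second slide (-0.10), C1qc without 1 array at a time (-0.577 to 0.0598, the latter without NB_Control replicate 3), and Isg15 within the first slide (-0.33), without NB_FACS replicate 3 (-0.50) and without NB_Control replicate 1 (-0.0024), with a highest value of 0.5413 without NB_FACS replicate 1. The median of the Toll-like receptor list, -0.18, became 0.0035 without NB_FACS replicate 3 and ran down to -0.2334 without NB_Control replicate 3. Of the 57 list medians 16 changed sign in at least 1 setting, most often those of integrins (7 settings), chemokines (6) and inhibitory receptors (6), and all 16 ran between -0.36 and 0.42. Leaving out NB_Control replicate 3 moved 16 medians by more than the spread between replicates, the most of any array. More medians moved within the second slide (27, with 1 array per group), within the first slide (18) and with normexp background (18). The median of the S100 list ran from 0.68 to 2.74 and that of cell cycle inhibitors from 0.33 to 1.02 over all settings. The cause was not tested. Dim probes limit low genes, for which only bounds are given.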
